A study of Rattus norvegicus with 3 samples.

Results

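The genes described here encode beta subunits of the sodium pump and the small FXYD proteins that regulate it. The list held 7 rat genes, Atp1b1, Atp1b2, Atp1b3, Fxyd1, Fxyd2, Fxyd4 and Fxyd5, and their probes were found through the RefSeq accession that the array gives for each probe. Of 30367 probes on the array, 7 belonged to 6 of these genes and took up 16 spots, and no probe was matched to Fxyd4. The list was chosen by the ratios of G200 over the negative control on the same 3 arrays, in an earlier look at these data, so the values of the 7 genes are given as a description, with no test of them.

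Kidney RNA of male Sprague-Dawley rats was measured on 3 Agilent arrays with 2 colours, all on 1 slide. Rats were 5 weeks old at purchase and were acclimated for 1 week. G200 rats then drank water with 200 ppm gamma-aminobutyric acid (GABA), for 3 weeks per the methods, and rats of the negative control received none. The labels give 3 rats per group and the methods 8, and both groups were labelled as non-tumor kidney. On each array the control carried Cy3 (green) and G200 carried Cy5 (red), and the dyes were exchanged on none, so a dye effect and the effect of GABA cannot be told apart. Ratios are given as log2 of G200 over control, so positive values stand for more signal in G200.

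The sodium pump (Na,K-ATPase) is a membrane enzyme that moves sodium out of the cell and potassium into it at the cost of ATP. Its alpha subunit carries out transport, its beta subunit is needed for folding and delivery of the alpha subunit to the membrane, and an FXYD protein may join them and change the affinity for sodium or potassium. In kidney tubules the pump sits in the basolateral membrane, where it drives sodium reabsorption.

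Atp1b1, the main beta subunit of kidney tubules, had log2 ratios of 0.97, 0.60 and 0.50 on replicates 1, 2 and 3. Its mean was 0.69 ± 0.25 (SD, n = 3), a 1.61-fold level compared with the negative control. The mean log2 ratio rose to 1.51 with median centring and 1.86 without normalization of the dyes. The normalized log2 intensity of its probe was 12.64, 12.71 and 12.77 in the control and 13.61, 13.31 and 13.28 in G200. All 3 G200 values lay above all 3 control values, and replicate 1 of G200 was the highest.

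Atp1b3, a beta subunit found in many tissues, was the gene with the most spots, 10 per array. Its log2 ratios were 0.47, 0.30 and 0.59, with a mean of 0.45 ± 0.15 (SD, n = 3) or 1.37-fold, and a mean log2 ratio of 1.1 with median centring and 1.45 without normalization of the dyes. Within an array the spots varied less than the arrays did, with an SD between spots of 0.06, 0.05 and 0.04. The lowest of all its spots stood at 0.21 on replicate 2 and the highest at 0.63 on replicate 3, so every spot was on the same side of 0.

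**Figure D1:**
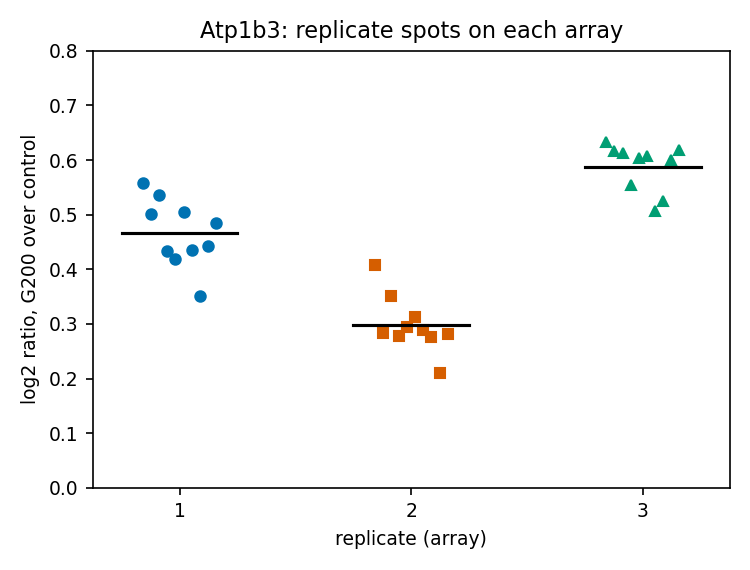
Log2 ratio of G200 over control for each of the 10 Atp1b3 spots on the 3 arrays (points), with the mean of each array (line). Spots of replicate 2 lie from 0.21 to 0.41 and those of replicate 3 from 0.51 to 0.63, with replicate 1 between and overlapping both.

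Atp1b2, a beta subunit best known from brain, where it also acts in cell adhesion, had log2 ratios of -0.09, -0.06 and 0.23. The mean of 0.03 ± 0.17 (SD, n = 3) was smaller than its spread after loess, and control and G200 levels overlapped, while the mean was 0.53 with median centring and 0.88 without normalization of the dyes. On every array its ratio was lower than that of Atp1b3, by a mean log2 difference of 0.43 ± 0.11, and lower than that of Atp1b1, by 0.66 ± 0.39.

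Among the FXYD genes, Fxyd2 had the highest ratios. It encodes the gamma subunit, which is abundant in kidney tubules and lowers the affinity of the pump for sodium. Its brighter probe gave 0.89, 0.38 and 0.75, with a mean of 0.67 ± 0.26 (SD, n = 3) or 1.59-fold, and a mean log2 ratio of 1.51 with median centring and 1.86 without normalization of the dyes. The dimmer probe gave 0.87, 0.35 and 0.87, with a mean of 0.70 ± 0.30. Both probes had the same sign on 3 of 3 arrays and differed by log2 values of 0.01, 0.03 and -0.12. On both, replicate 2 was the lowest of the 3 arrays.

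Fxyd1 (phospholemman), a regulator of the pump that is phosphorylated by protein kinases in heart and muscle, had log2 ratios of -0.32, -0.56 and -0.48. The mean was -0.45 ± 0.12 (SD, n = 3), or 0.731 of the level in the negative control. It was -0.17 with median centring and turned to 0.18 when the dyes were not normalized, beside 0.27 and 0.62 for the median of all genes. Control levels of 7.18, 7.22 and 7.26 lay above G200 levels of 6.86, 6.67 and 6.78 on the normalized log2 scale, with no overlap. Its probe was dim, with a net intensity of 72 to 82.5 units in green and 44.5 to 117.5 in red, and the size of its ratio depended on the background step, with a mean of -0.76 at an offset of 0 and -0.58 without background correction. In the deposited log ratio, which differs in background and dye steps, the mean was -0.81.

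Fxyd5 (dysadherin), which affects cell adhesion as well as the pump, had log2 ratios of -0.03, -0.05 and -0.20. Its mean of -0.10 ± 0.09 (SD, n = 3) was close to the median of all genes, -0.05, and it turned to 0.49 with median centring and 0.84 without normalization of the dyes. Fxyd4, a regulator of collecting duct cells that raises the affinity of the pump for sodium, has no value here.

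**Figure D2:**
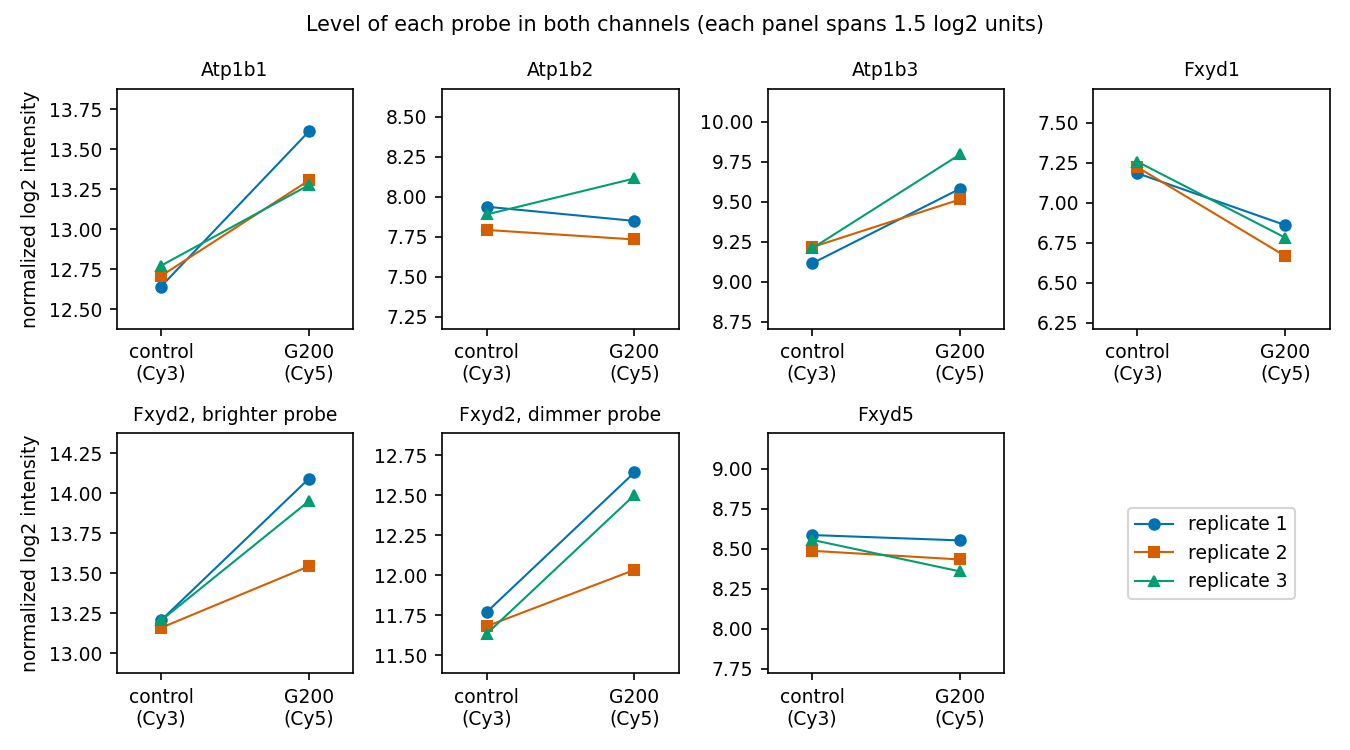
Normalized log2 intensity of the 7 probes in the control (Cy3) and G200 (Cy5) channel of each array, joined by a line per array. Each panel spans the same number of log2 units but starts at its own level, since levels of different probes are not comparable. Lines of Atp1b1, Atp1b3 and both Fxyd2 probes go up on all arrays and those of Fxyd1 go down. Without normalization of the dyes the mean ratio of Fxyd1 is 0.18, beside a median of 0.62 for all genes.

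From highest to lowest mean, the order was Atp1b1 (0.69), Fxyd2 (0.67), Atp1b3 (0.45), Atp1b2 (0.03), Fxyd5 (-0.10) and Fxyd1 (-0.45). Atp1b1 and Fxyd2 did not differ beyond their spread, with a mean difference of 0.02 ± 0.23 in log2 ratio. The difference between Atp1b1 and Atp1b3, 0.24 ± 0.30, was also within its spread. Fxyd2 and Fxyd1, the highest and lowest of the listed FXYD genes, differed by 1.21, 0.94 and 1.22 on replicates 1, 2 and 3.

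Over the 6 genes with a probe, the median log2 ratio was 0.24 (0.22, 0.12 and 0.36 by array), beside a median of -0.05 over the 14179 genes tested. Across all genes, the R package limma with Benjamini-Hochberg adjustment at 0.05 called 11.6% higher, 25.9% lower and 37.5% in either direction after loess, so 30.8% of the calls were higher, against 80% with median centring. All 7 probes were well above background in both colours on all 3 arrays. The 5th and 95th percentile of all genes were -0.86 and 0.39.

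Probes printed in 5 or more spots, 1109 in green and 1084 in red, show how far the channels of the 3 arrays differed. Between arrays, spots at the same position had a squared difference of 0.294 to 0.592 times that of replicate spots at other positions of an array in green, and 1.69 to 2.17 times in red. Position is shared in the first of these differences and not in the second, and its part was not tested. For means over the spots of a probe, the squared difference was 2.03 to 2.85 times that of the spot noise in green, and 21.1 to 43.1 times in red. These values do not tell whether the 3 control channels hold 1 RNA or several. If they hold 1, the test against 0 leaves out the spread between control rats.

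Of the other family genes, Fxyd3 had ratios below 0 on both of its probes. The brighter probe gave -1.14, -0.59 and -0.44, with a mean of -0.72 ± 0.37 (SD, n = 3; limma adjusted p = 0.0102), and turned to 0.079 without normalization of the dyes. Its dimmer probe had a mean of -0.46 ± 0.25. The call ended with median centring (adjusted p = 0.176), in a range of 0.00534 to 0.747 over 10 alternatives.

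Fxyd7, best known from brain, had log2 ratios of -0.70, -0.16 and -0.49 and a mean of -0.45 ± 0.27 (SD, n = 3; limma adjusted p = 0.0223), which turned to 0.047 without normalization of the dyes. The mean was -0.88 at an offset of 0 and -0.95 in the deposited log ratio. Its call ended with median centring (adjusted p = 0.0962), without replicate 1 (0.0567) and without replicate 3 (0.126), in a range of 0.0144 to 0.835. Its probe was dim, with a net intensity of 37 to 65 units over both colours.

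Fxyd6 did not pass the test after loess (limma adjusted p = 0.0701), but passed with median centring (mean 0.97, adjusted p = 0.0174) and without normalization of the dyes (mean 1.32, adjusted p = 0.00644), in a range of 0.00644 to 0.376 over 10 alternatives. Its brighter probe had log2 ratios of 0.18, 0.10 and 0.38 (mean 0.22 ± 0.14), and its dim second probe, at -0.18, 0.11 and -0.08, had the same sign on 1 of 3 arrays. Atp1a4 and Atp1b4 were not well above background in either colour, and no fold is given for them.

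**Figure D3:**
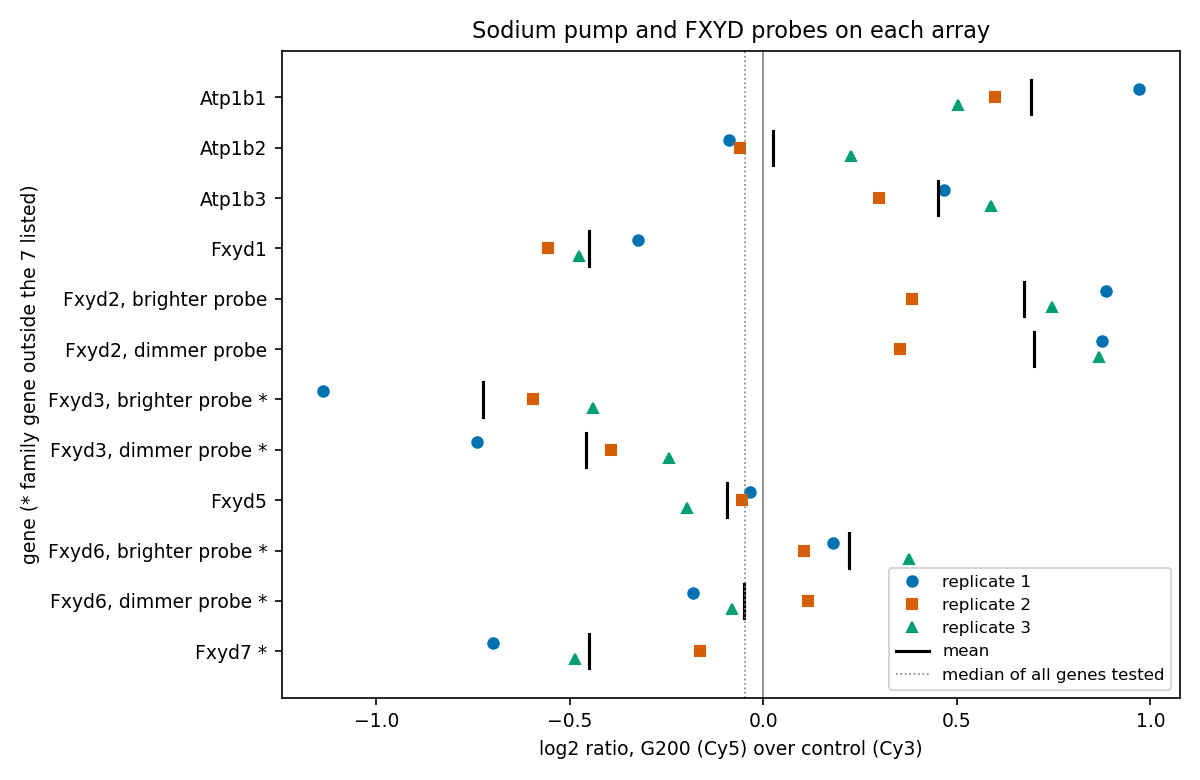
Log2 ratio of G200 over control on each array for 12 tested probes of beta subunit and FXYD genes, with the mean as a bar and the median of all genes as a dotted line. Atp1b1, Atp1b3 and Fxyd2 lie above 0 on all arrays, and Fxyd1, Fxyd3 and Fxyd7 below 0, although the means of the last 3 turn to 0.18, 0.079 and 0.047 without normalization of the dyes. In that setting the median of all genes is 0.62.

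In the RefSeq gene table of the rat assembly GRCr8, Fxyd5, Fxyd7 and Fxyd1 follow each other on chromosome 1, with Lgi4 between Fxyd1 and Fxyd3. The mean log2 ratios of these 4 FXYD genes were -0.10, -0.45, -0.45 and -0.72. Fxyd6 and Fxyd2 are neighbours on chromosome 8, with means of 0.22 and 0.67. Fxyd5 lay close to the median of all genes, -0.05, and the dimmer Fxyd6 probe had a mean of -0.05. Signs of both groups are those after loess, and the 4 on chromosome 1 turned positive without normalization of the dyes. A relation of position to ratio was not tested.

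RefSeq promoter sequences were available for 5 of the 7 genes, and 3 are printed, since after loess the ratio of Atp1b3 was above 0, that of Atp1b2 near 0 (0.53 with median centring) and that of Fxyd1 below 0 (0.18 without normalization of the dyes). Each line holds the 250 bases before a start site on GRCr8, in lower case, with capitals for matches to the GC box (GGGCGG), the TATA box (TATAAA) and the core hexamer of steroid receptor elements (AGAACA) on either strand.
Atp1b3, chr8:105821152-105821401, minus strand: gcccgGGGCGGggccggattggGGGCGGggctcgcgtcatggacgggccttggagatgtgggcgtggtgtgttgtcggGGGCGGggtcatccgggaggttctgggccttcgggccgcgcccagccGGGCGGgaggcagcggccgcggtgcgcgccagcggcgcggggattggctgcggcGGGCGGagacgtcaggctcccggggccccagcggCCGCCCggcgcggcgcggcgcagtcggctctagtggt
Atp1b2, chr10:54823709-54823958, minus strand: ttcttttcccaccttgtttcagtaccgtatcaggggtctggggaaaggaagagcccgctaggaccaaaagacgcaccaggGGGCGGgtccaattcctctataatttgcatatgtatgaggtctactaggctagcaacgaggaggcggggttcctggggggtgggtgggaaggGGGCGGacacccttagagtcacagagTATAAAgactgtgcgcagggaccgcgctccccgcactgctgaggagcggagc
Fxyd1, chr1:95418581-95418830, minus strand: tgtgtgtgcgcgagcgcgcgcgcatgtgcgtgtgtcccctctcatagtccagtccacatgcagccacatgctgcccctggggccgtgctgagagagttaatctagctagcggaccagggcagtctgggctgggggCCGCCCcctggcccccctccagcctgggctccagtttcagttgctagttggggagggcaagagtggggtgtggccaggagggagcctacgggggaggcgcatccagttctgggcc

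The Atp1b3 window held 6 matches to the GC box, Atp1b2 held 2 and Fxyd1 held 1. Windows of Fxyd5, not printed, held 2 and 0, and that of Fxyd4 held 1. No window was available for Atp1b1 and Fxyd2, which had the highest ratios. A relation of these counts to the ratios was not tested. Only Atp1b2 of the 3 printed windows held a TATA box match, and none held the hexamer. Of all 33469 promoter windows of this length, 30.5% held a GC box match, 12.9% a TATA box match and 17.5% a match to the hexamer. The share of G and C was 79.6% for Atp1b3, 58% for Atp1b2 and 66.8% for Fxyd1, against a median of 51.2%. It was 67.2% and 60.8% for the Fxyd5 windows and 55.6% for Fxyd4. A match is a stretch of letters and no site of binding.

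Calls among the other family genes and in the pathway and marker lists depended on the normalization of the dyes and on replicate 3. Outside the liver list, 32 of 105 tested genes (30.5%) were called, 15 higher and 17 lower, beside 37.5% of all genes. All 15 higher genes had positive means also with median centring and without normalization, while 10 of the 17 lower genes turned positive with median centring and 13 without normalization. The median of all genes was -0.05 after loess, 0.27 with median centring and 0.62 without normalization. Signs in these settings include that shift, and a gene that turned positive may still lie below the median. Without replicate 3, 21 of the 32 calls were lost, and 9 calls held without each replicate in turn, among them Atp6v0d2, Dcn, Egf, Sptan1, Umod, Fxyd3, Pecam1 and Slc4a1.

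Of 11 tested genes that anchor the pump or carry its hormone control, 2 were higher and 2 lower after loess, which turned to 7 higher and 0 lower with median centring, where 35.2% of all genes were higher and 8.78% lower. The share called after loess was 36.4%, beside 37.5% of all genes, and the list had a median log2 ratio of 0.01. Sptan1, the alpha spectrin of the membrane skeleton, rose by a log2 ratio of 0.58 ± 0.13 (limma adjusted p = 0.00349). Sgk1, a kinase induced by aldosterone, rose by 0.35 ± 0.27 (adjusted p = 0.048).

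Both adducins called, Add3 and Add1, which link spectrin to actin, were lower, at -0.27 ± 0.15 (adjusted p = 0.0415) and -0.22 ± 0.09 (adjusted p = 0.0465), but turned to 0.44 and 0.50 with median centring, and Add3 to 0.056 as the mean of its probes. The calls of Sgk1, Add1 and Add3 each ended without at least 1 replicate. Sgk1 had an adjusted p of 0.107 without replicate 1 and 0.166 without replicate 2, and the values without replicate 3 were 0.201 for Add1 and 0.157 for Add3.

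Other P-type pumps were represented by 11 tested genes, of which 1 was higher and 2 lower (5 and 1 with median centring, 7 and 0 without normalization of the dyes), with a median of 0.08. The share called after loess was 27.3%, beside 37.5% of all genes, and with median centring 35.2% of all genes were higher and 8.78% lower. Without normalization of the dyes, 56.5% of all genes were higher and 2.14% lower. Atp2c1, a calcium and manganese pump of the Golgi, was at 0.32 ± 0.12 (adjusted p = 0.0196), and Atp13a1 at 0.16 did not pass. Atp4a, the catalytic subunit of the proton pump of the stomach, was at -0.31 ± 0.07 (adjusted p = 0.0163), and Atp2a2, the calcium pump of the endoplasmic reticulum, at -0.30 ± 0.12 (adjusted p = 0.0245), or 0.40 with median centring. None of these 3 calls held without replicate 3.

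Sodium carriers and channels of tubule cells gave 12 tested genes with a median of 0.16. Of these, limma called 0 higher and 1 lower, which turned to 6 higher and 0 lower with median centring, and the methods' t-test called 0. Of all genes, 11.6% were higher and 25.9% lower after loess, and 35.2% and 8.78% with median centring. Without replicate 2, limma called 3 of the list higher and 1 lower, beside 11.4% and 23.6% of all genes. With the deposited log ratio it called 3 higher and 1 lower, beside 15.1% and 22.4% of all genes. At an unadjusted p under 0.05, limma gave 3 higher and 2 lower. Slc5a2, a glucose carrier, at 0.66 and Slc12a3, the thiazide-sensitive carrier, at 0.34 had the highest means, with ratios on replicate 1 of 1.59 and 1.23, and did not pass. Slc12a1, the carrier of the thick ascending limb, was at -0.18 and did not pass.

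Potassium and chloride pathways had 4 genes lower and 0 higher by limma of 11 tested, which turned to 0 lower and 5 higher with median centring. The median was -0.16, at an unadjusted p under 0.05 limma gave 5 lower and 2 higher, and the share called was 36.4%, beside 37.5% of all genes. After loess 25.9% of all genes were lower and 11.6% higher, and with median centring 8.78% and 35.2%. Kcnma1, a potassium channel opened by calcium, was at -0.66 ± 0.31 (adjusted p = 0.00914). Bsnd, a chloride channel subunit, was at -0.33 ± 0.19 (adjusted p = 0.0315), or 0.27 with median centring. Kcnk5, a potassium channel, was at -0.44 ± 0.14 (adjusted p = 0.00916), or 0.16 with median centring. Kcnq1 at 0.33 and Slc12a7 at 0.21 had the highest means and did not pass. None of the 4 calls held without replicate 3.

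**Figure D4:**
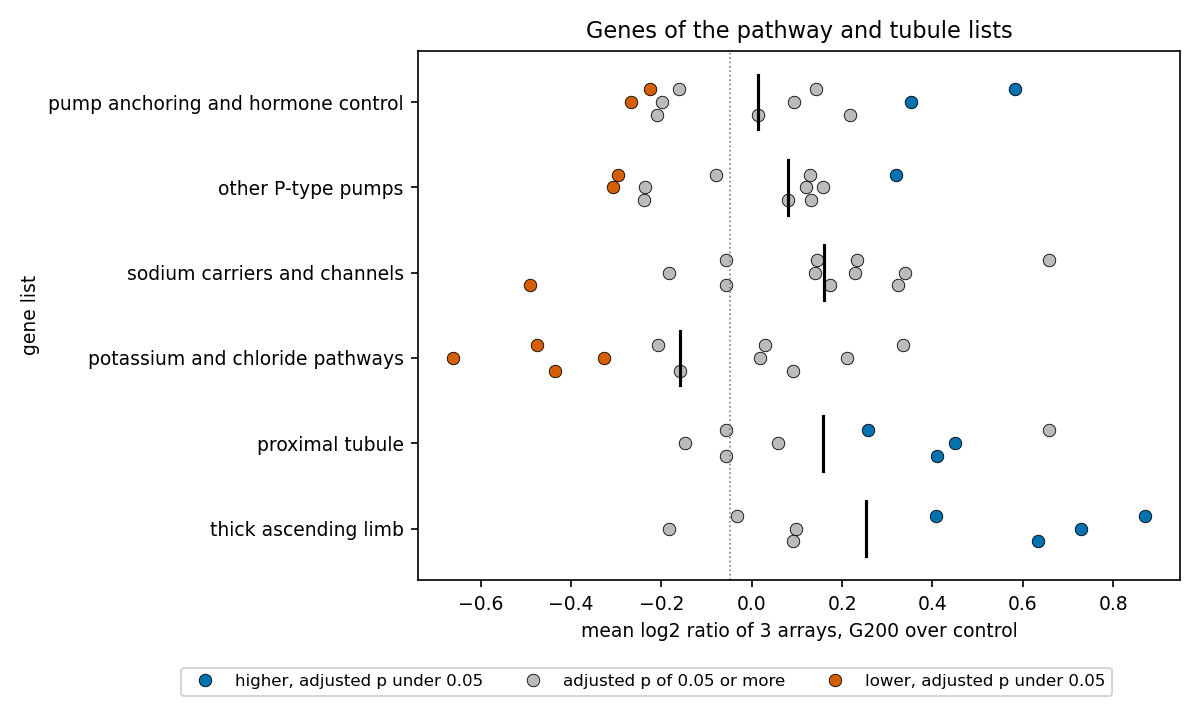
Mean log2 ratio of each tested gene in 6 lists, coloured by call, with the median of the list as a black bar and the median of all genes, -0.05, as a dotted line. Genes lower in G200 are most numerous in the potassium and chloride list (4 of 11, but 0 lower and 5 higher with median centring) and genes higher in the thick ascending limb list (4 of 8), beside 25.9% of all genes lower and 11.6% higher. With median centring 8.78% of all genes are lower and 35.2% higher.

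Markers of the tubule segments that hold the pump were present. All 8 proximal tubule and all 8 thick ascending limb markers were tested, with 3 and 4 called higher and 0 lower after loess, and 6 and 7 higher with median centring. The shares called after loess were 37.5% and 50%, beside 37.5% of all genes. Genes called higher made up 11.6% of all genes after loess and 35.2% with median centring. In the thick ascending limb, Umod at 0.87 ± 0.10 (adjusted p = 0.00101), Egf at 0.73 ± 0.33 (0.00813), Cldn10 at 0.63 ± 0.34 (0.0132) and Cldn16 at 0.41 ± 0.08 (0.00706) were higher, while Cldn19 at -0.03 and Slc12a1 at -0.18 did not pass. Without replicate 3, Umod and Egf kept their calls and Cldn10 (adjusted p = 0.0842) and Cldn16 (0.0673) did not. In bulk tissue, a change in the number of cells of a type and a change in RNA per cell cannot be told apart.

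Of the proximal tubule markers, Cubn at 0.45 (adjusted p = 0.0351), Aqp1 at 0.41 (0.00631) and Lrp2 at 0.26 (0.0332) were higher, and none of these 3 calls held without replicate 3. Slc5a2 had the highest mean, 0.66, and Slc22a8 and Slc13a3 the lowest, -0.15 and -0.06. The summed normalized intensity of the thick ascending limb markers was 42661, 38779 and 41367 in the control and 69441, 58555 and 62649 in G200, with Umod the brightest. That of the proximal tubule markers was 30332, 22835 and 25934 in the control and 33455, 24736 and 25894 in G200, with Slc34a1 the brightest. The part of these markers in the ratios of the sodium pump genes was not tested.

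In lists of other kidney cells the share called after loess was 0% for the principal cell, 20% for podocyte, endothelium and stroma, and 40% for the intercalated cell and the inner medulla, beside 37.5% of all genes. With median centring, 6 of 8 principal cell, 4 of 5 intercalated cell, 5 of 5 stromal, 2 of 5 endothelial and 2 of 5 podocyte genes were called higher and 0 lower, beside 35.2% and 8.78% of all genes. After loess, the principal cell list had 0 calls by limma of 8 tested (2 higher and 1 lower at an unadjusted p under 0.05), with Avpr2 at 0.21, Aqp3 at 0.20, Aqp4 at -0.25 and Aqp2 at -0.30. Without replicate 2, limma called 2 of the 8 lower, Aqp4 (adjusted p = 0.0174) and Aqp2 (0.0205), beside 23.6% of all genes. The deposited log ratio gave 1 higher and 0 lower, beside 15.1% and 22.4% of all genes. Intercalated cell markers had 1 higher, Atp6v0d2 at 0.53, and 1 lower, Slc4a1 at -0.68 (0.34 without normalization of the dyes), of 5 tested, with Atp6v1g3 at 0.31 and Foxi1 at 0.01. In the inner medulla list, Slc5a3 at -0.36 and Slc14a2 at -0.64 were lower of 5 tested, but turned to 0.32 and 0.024 with median centring, and Akr1b1 at 0.07 was not called. Slc5a3 lost its call without replicate 1 (adjusted p = 0.0765) and without replicate 2 (0.0922), and Slc14a2 without replicate 2 (0.0622) and without replicate 3 (0.0537). For the distal convoluted tubule 2 genes were tested, Slc12a3 at 0.34 and Wnk1 at 0.04, and limma called neither after loess, also at an unadjusted p under 0.05. It called both higher without normalization of the dyes, where 56.5% of all genes were higher.

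Podocyte markers had 1 of 5 higher, with Wt1 at 0.53, Nphs1 at 0.41 and Synpo at 0.00 not called. Of 5 endothelial genes, Pecam1 was lower at -0.56 (0.14 with median centring), with Emcn at 0.14, Kdr at 0.04 and Cdh5 at -0.24 not called. Dcn was higher at 1.09, 1 of 5 stromal genes, with Col1a2 at 0.11, Col3a1 at 0.05 and Col1a1 at -0.13 not called. Lyz2 was higher at 0.60, 1 of 4 leukocyte genes, with Ptprc at 0.10 and Cd68 at -0.11 not called, and the Lyz2 call ended without replicate 3 (adjusted p = 0.0723).

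Fxyd1 and Atp1b2 are best known from muscle and brain. Of 5 muscle genes tested, Tagln at 0.18, Des at 0.11, Acta2 at -0.13 and Myl9 at -0.15 among them, limma called 0 after loess (0 also at an unadjusted p under 0.05). It called 3 higher without normalization of the dyes. Of all genes, 37.5% were called after loess, and 56.5% were higher without normalization of the dyes. Acta1 and Ckm were not well above background. In the glia and neuron list, 5 of 6 genes were not well above background, and Mbp at -0.08 was not called. Of 3 adipose genes tested, Cfd was lower at -0.79, with Fabp4 at 0.14 and Adipoq at -0.06 not called, and the Cfd call ended without replicate 3 (adjusted p = 0.132). Cyp17a1, at -0.26, was the adrenal gene tested and was lower (-0.89 at an offset of 0 and -1.26 in the deposited log ratio), a call lost without each replicate in turn (adjusted p of 0.067 to 0.119).

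Liver markers were present in these kidney samples and were lower in G200. All 9 were lower, with a median log2 ratio of -1.86, -3.43 and -4.61 on replicates 1, 2 and 3. Their summed normalized intensity was 131216, 134932 and 158269 in the control and 34890, 10282 and 3835 in G200, with Ttr the brightest. Apoa1 at -2.45 and Serpina1 at -2.72 fell least, and Alb at -3.82 and Apoc1 at -4.05 fell most. With robust eBayes 0 of the 9 passed (adjusted p of 0.0619 to 0.107), and all 9 means stayed negative with median centring and without normalization. Serpina1 also lost its call without replicate 2 (adjusted p = 0.0532). The part of these markers in the ratios of the sodium pump genes was not tested.

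By Euclidean distance over the 3 arrays, the genes nearest to Atp1b1 among 8900 with a symbol were Plac8 (0.0722), Trappc2b (0.138) and Inmt (0.144). Those nearest to Fxyd1 were Junb (0.0368), Dbp (0.0394) and Clca5 (0.0706). Within a distance of 0.2 lay 10 genes for Atp1b1 and 88 for Fxyd1, in log2 units.

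The ratios of the 6 genes were also computed under 12 other ways of processing. Of these, 8 changed the ratio (9 for Fxyd2, which has 2 probes), and the others changed no more than the median of all genes. Over all genes the median was 0.27 with median centring and 0.62 without normalization of the dyes, so values were set against that median. Relative to it, Atp1b1 stood at 0.59 to 1.24, Fxyd2 at 0.61 to 1.24 and Atp1b3 at 0.43 to 0.83. Fxyd1 stood at -0.79 to -0.35, below the median of all genes also where its own ratio was 0.18. Atp1b2, at -0.02 to 0.26, and Fxyd5, at -0.11 to 0.22, lay on both sides. Among the other family genes, Fxyd6 stood at 0.13 to 0.70, Fxyd3 at -0.98 to -0.48 and Fxyd7 at -0.93 to -0.28.

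**Figure D5:**
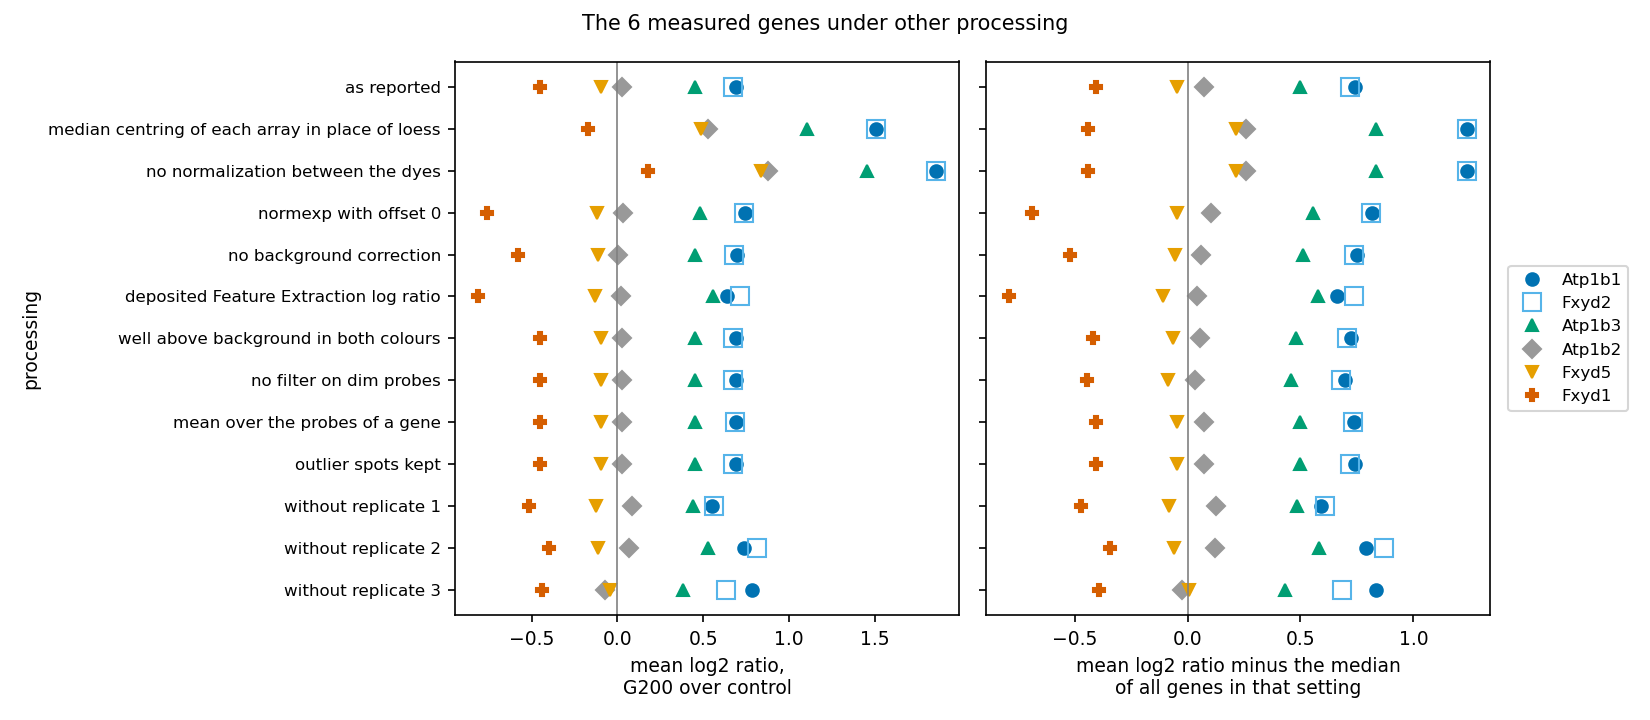
Mean log2 ratio of the 6 genes as reported and under 12 other ways of processing, as measured (left) and minus the median of all genes in the same setting (right). Atp1b1, Fxyd2 and Atp1b3 lie right of 0 in both panels, and Fxyd1 lies left of 0 in the right panel but at 0.18 in the left one when the dyes are not normalized.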

How the data were processed

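Feature Extraction (Agilent) tables of 3 arrays, 1 per replicate, were used as deposited. Their columns give the median spot intensity and local background intensity per colour as deposited by the authors, and a log10 ratio of red over green that the authors' software made after background subtraction and dye normalization. Per the file headers the version was 11.5.1.1, while the submitters' processing notes give 9.3.2.1 and the methods name another version. Here the deposited intensities were corrected with limma 3.58.1 in R 4.3.3 (normexp, offset 50), followed by loess on each array with control spots at weight 0. Spots with an outlier mark were left out (635, 736 and 945 on replicates 1, 2 and 3), and spots of a probe were averaged. No spot was saturated. Of 30367 probes, 18355 (60.4%) were matched by accession to a symbol in the RefSeq table of GRCr8.

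A gene was tested if over 0.5 of the spots of its brightest probe passed the deposited mark for signal well above background, in 1 colour on all 3 arrays, which left 14179 genes. A two-sided limma test (lmFit, eBayes) set the mean log2 ratio against 0, with p-values adjusted by Benjamini-Hochberg, and the array is the block. Channel levels were computed after quantile normalization of the mean log2 intensities between arrays. Precision is limited by the number of arrays. Captions of the paper's heat maps of array genes give 2 kidney tissues of the GABA group per column, the labels 3 samples. How rats were assigned to the channels is unclear from these, so p-values measure the spread between these samples, which may be technical. Promoter sequences are from RefSeq (GRCr8). The steps were tested on simulated data. The rule on spots was changed after the number of genes had been seen and after a first run of that test had missed its limit.

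Named are the 7 genes with all their probes, the other family genes, the 2 highest and 2 lowest means of each list (all where 4 or fewer were tested), every called gene of the lists on pump control and on sodium, potassium and chloride pathways, and the 3 genes nearest to the highest and the lowest of the 7. Some genes that this rule names are not reported here, and the counts and medians of lists hold them. Genes and lists were chosen with earlier results of these data known. Alternatives covered background correction, dye normalization, the deposited log10 ratio, the filter on dim probes, outlier spots, the probe that stands for a gene, the test and each replicate left out.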

Additional observations from a re-analysis of the deposited data

How the results depend on the processing

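The 3 arrays are few, and dim probes are limited by signal near background. Loess gave 1638 genes higher and 3678 lower, 30.8% of the calls higher. With median centring the counts were 4990 and 1245 (80% higher), and without normalization of the dyes 8010 and 304 (96.3%), with an all-genes median of 0.27 and 0.62 in place of -0.05. The deposited log ratio gave 40.3% higher. In these first 2 settings the median of the 6 genes was 0.81 and 1.17, Fxyd5 was 0.49 and 0.84, and without normalization Fxyd1, Fxyd3 and Fxyd7 were 0.18, 0.079 and 0.047. Of the list genes called lower and given here, those that turned positive with median centring and without normalization were Add1 (0.50 and 0.85), Add3 (0.44 and 0.79, and 0.056 as the mean of its probes), Atp2a2 (0.40 and 0.75), Bsnd (0.27 and 0.62), Kcnk5 (0.16 and 0.51), Pecam1 (0.14 and 0.49), Slc14a2 (0.024 and 0.37) and Slc5a3 (0.32 and 0.67), and Slc4a1 (0.34) without normalization only. Set against the median of all genes in the same setting, Pecam1, Kcnk5, Slc14a2 and Slc4a1 stayed below it in both settings. Add1, Add3, Atp2a2 and Slc5a3 lay above it, and Bsnd lay at it. Fxyd1, Fxyd3 and Fxyd7 stayed below it. The cause of these differences between settings was not tested.

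The methods' t-test, for groups of unequal variance, was run on the channels and called 54 genes higher and 283 lower after adjustment (16% of calls higher, and 4178 genes at an unadjusted p under 0.05, beside 6962 by limma). A test of the ratios against 0 with the variance of each gene alone, which the methods do not name, called 0 and 2 (0%, and 4475 unadjusted). Separate channels fitted by limma without the array as block gave 1018 higher. Leaving out 1 replicate gave 182 to 1616 genes higher and 1429 to 3349 lower, the lowest without replicate 3 (11.3% of calls higher), and 862 higher without replicate 1. Fewer arrays enter these fits. Of the other values of the single family genes given, 86 moved by less than their SD between arrays and 17 by more with the same sign or no common sign between arrays. The 86 include values that did not change at all, since 8 of the 12 alternatives changed a ratio (9 for genes with 2 probes). No gene of the lists or of the rest of the family passed the methods' t-test or the test with the variance of each gene alone (0 and 0 of 41 called by limma). Over all alternatives, 156 values of the called list genes given kept their sign and lost the call, and 106 values of list genes not called after loess gained one with the same sign.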
